A study of Homo sapiens with 4 samples.

Results

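The genes described here were the 8 HOXB genes HOXB2, HOXB3, HOXB4, HOXB5, HOXB6, HOXB7, HOXB8 and HOXB9 and the antisense noncoding RNA HOXB-AS3, 9 of the 57979 genes in the deposited expression table. They were found by their symbols and had been chosen by the very FPKM values compared here, with the difference between TXNDC9 knockout and wild-type cells already known, so that difference is given as a description, with no test. RNA-seq had been performed on polyadenylated RNA of cells labelled HepG2, a human hepatocellular carcinoma line, grown in DMEM with fetal bovine serum, to learn how TXNDC9, a thioredoxin domain protein, affects progression of this cancer. There were 2 libraries of wild-type cells and 2 of TXNDC9-KO cells, in which CRISPR-Cas9 guides to the first exon of TXNDC9 had been delivered with the lentiCRISPRv2 plasmid. For its protein blots the study sorted cells infected with Cas9 and a guide, or with the vector alone, and it describes some RNA-seq values as coming from independent experiments. The sources used here do not tie these 4 libraries to either statement, or to a clone, so p-values measure only the spread between these libraries, which may be technical.

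The labelled cell line was checked first. The 9 hepatocyte genes listed for HepG2 (ALB, AFP, APOA1, APOB, TTR, SERPINA1, FGB, HNF4A and FOXA2) were at 0.449 FPKM (fragments scaled to transcript length and to library size) or less in every library, and APOA1 and FOXA2 were listed at 0 in all 4. Their summed level was 0.351 to 0.716 FPKM in wild-type and 0.0479 to 0.121 FPKM in knockout libraries. By contrast, 5 abundant genes picked after their values were seen (GAPDH, ACTB, EEF1A1, KRT8 and KRT18) ranged from 927 to 9019 FPKM. Of these, GAPDH, ACTB, KRT8 and KRT18 were lower in knockout libraries (log2 differences -1.20, -1.28, -1.78 and -1.76) and EEF1A1 was not (0.04). The defining markers of the labelled line were thus at or near 0, and every statement below is about the libraries labelled HepG2. The part of this in the HOXB values was not tested. TXNDC9 itself was 35.1 and 37.3 FPKM in wild-type against 21.9 and 27.6 FPKM in knockout libraries, a log2 difference of -0.55 (SE 0.14, adjusted p = 0.0145 by limma with Benjamini-Hochberg adjustment), which did not pass the threshold of 0.01. A cut by CRISPR-Cas9 can leave the transcript in place, so this level is no check of the protein. By western blot, the study reports reduced TXNDC9 protein in HepG2 cells given Cas9 and the guide. Replicate libraries correlated at 0.976 and 0.980 on the log2 scale and libraries of different groups at 0.859 to 0.897. The FPKM of all genes summed to 805816 and 971102 in wild-type but to 535973 and 568279 in knockout libraries, so the HOXB differences are also given on other scales.

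HOX genes encode homeodomain transcription factors that assign identity along the head to tail axis of the embryo, and they lie in clusters in which the order of the genes matches the order of their expression domains. Genes at the HOXB2 end act in the hindbrain and those at the HOXB9 end in the trunk, and many stay active in adult cells, blood stem cells in particular, and in carcinomas. Their proteins bind DNA with the TALE homeodomain partners PBX and MEIS, their silent state is kept by Polycomb complexes and their active state by trithorax complexes, and antisense RNAs such as HOXB-AS3 are transcribed from the same clusters.

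In hg38 (GENCODE release 44) the 8 HOXB genes lie in a row on the minus strand of chromosome 17, with the annotated span of HOXB3 reaching over HOXB4, HOXB5 and nearly all of HOXB6 and that of HOXB7 over HOXB8 and HOXB9. HOXB-AS3 runs through HOXB3 to HOXB6 on the plus strand. HOXB2 (ENSG00000173917, chr17:48540894-48545109) is followed by HOXB3 (ENSG00000120093, chr17:48548870-48604912), HOXB4 (ENSG00000182742, chr17:48575507-48578350), HOXB5 (ENSG00000120075, chr17:48591257-48593779) and HOXB6 (ENSG00000108511, chr17:48595751-48604992). HOXB7 (ENSG00000260027, chr17:48607232-48633572), HOXB8 (ENSG00000120068, chr17:48611377-48615292) and HOXB9 (ENSG00000170689, chr17:48621156-48626358) lie beyond. HOXB-AS3 (ENSG00000233101, chr17:48549630-48606414) has 15 annotated transcripts with 1913 exonic bases. Of these transcripts, 4 start within 300 bases of the HOXB3 canonical start, 3 inside HOXB5 and 7 inside HOXB6. HOXB-AS3 exons cover 425 exonic bases of HOXB6 (16.3% of its exonic bases), 77 of HOXB3 (1.04%) and 73 of HOXB5 (3.93%), and none of HOXB2, HOXB4, HOXB7, HOXB8 or HOXB9. Whether the authors counted reads by strand is not given in the sources used here, and without strand, reads of HOXB-AS3 and of the HOXB6, HOXB5 and HOXB3 exons beneath it cannot be told apart. Over the cluster genes compared, 858 exonic bases of HOXB6 and 870 of HOXB3 were shared with another gene. Some of these HOXB6 bases belong to HOXB3, which lies on the same strand, so strand alone would not separate their reads.

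A RefSeq promoter window (250 bases before to 50 after the start, GRCh38.p14) was matched for 1 of the 9 genes, HOXB-AS3. Its start, 48595958, lies in the 3′ UTR of HOXB6 on the opposite strand, and 4 GENCODE transcripts start within 30 bases of it. The 30 bases around it are shown because they mark where the antisense RNA begins inside HOXB6, with transcribed bases in capitals. The farthest upstream part of the window is shown because it is the part outside HOXB6. Both are read on the plus strand.
HOXB-AS3 start, chr17:48595943-48595972: tgtgctccttccagtGGCTTTGGGGAGGGG
HOXB-AS3 upstream, chr17:48595708-48595750: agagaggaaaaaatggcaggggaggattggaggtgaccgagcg
The other 257 bases of the window belong to HOXB6 exon. In the whole window TAAT, the core that homeodomain proteins prefer, occurred 8 times (both strands, overlaps counted). It occurred at least once in 50.3% of 34796 RefSeq windows, with a median of 1, and 99.1% of windows held 8 or fewer. The PBX-HOX motif TGATNNAT, the E-box CACGTG that MYC and its partners prefer, and the TATA box TATAAA were not found, whereas 7.42%, 7.21% and 11.6% of windows held them. The window held 6 CpG dinucleotides (median of all windows 14) and was 40.7% GC (median 58.7%), so it was poorer in CpG than most promoter windows. The windows compared were not matched for GC content, so the count of TAAT, which holds no G or C, is not read as enrichment. These matches are letters in a window and say nothing of what binds there.

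**Figure D1:**
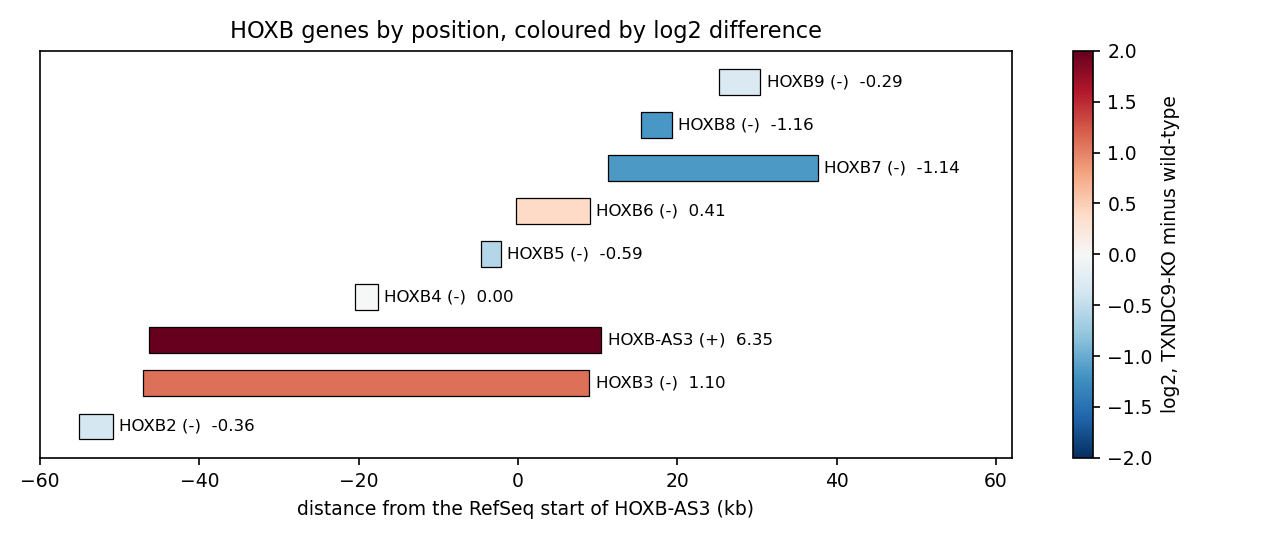
Position of the 9 genes, each drawn from its first to its last annotated base against distance in kb from the RefSeq start of HOXB-AS3, with strand and the difference in mean log2(FPKM + 0.1), TXNDC9-KO minus wild-type, beside it. Colour shows that difference and is clipped at 2, so HOXB-AS3 (6.35) is off its scale, and HOXB7 (-1.14) and HOXB8 (-1.16) are neighbours at the right.

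All 9 genes passed the filter of a mean above 1 FPKM, HOXB-AS3 only through its knockout values. On log2(FPKM + 0.1), 2 of the 9 were at least 2-fold higher in knockout libraries (HOXB-AS3 and HOXB3), against 15.9% of the 13246 genes above the filter, and 2 were at least 2-fold lower (HOXB7 and HOXB8), against 17.1%. Both knockout values lay above both wild-type values for 3 genes (40.1% of all genes) and below them for 5 (45.9%), and the groups overlapped only for HOXB4. The choice of members used this same contrast, so nothing is read from these shares. The median difference was -0.29 over the 9 genes and -0.32 over HOXB2 to HOXB9, beside -0.09 over all genes. In bulk RNA, a lower level in all cells and fewer cells with the transcript cannot be told apart.

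**Figure D2:**
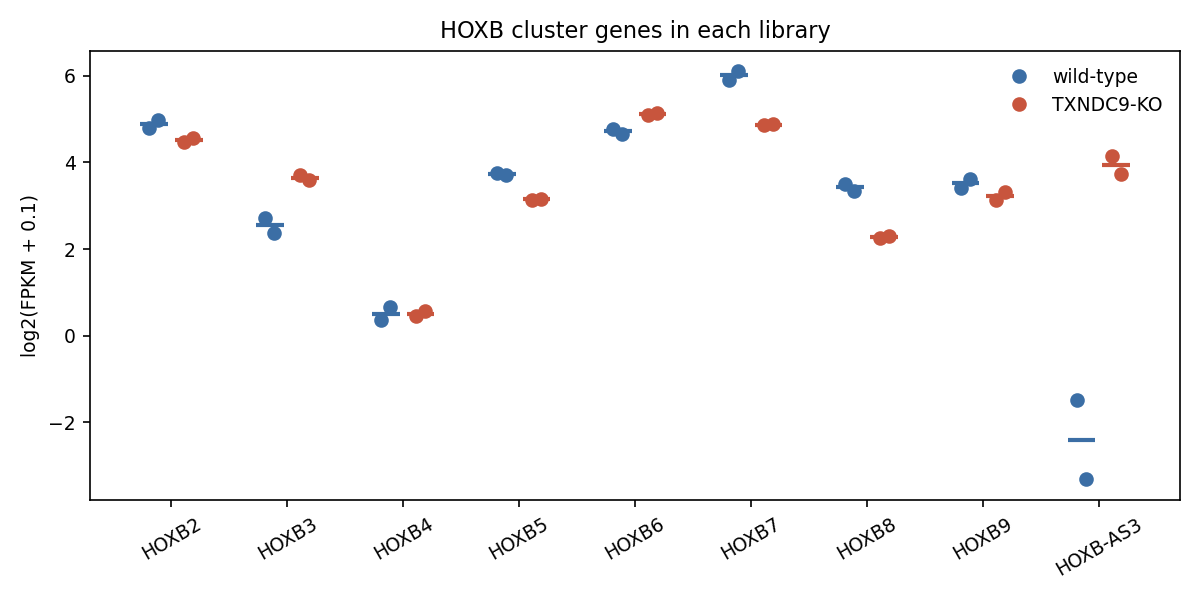
Level of each gene in each library as log2(FPKM + 0.1), with wild-type in blue, TXNDC9-KO in red, 1 point per library and a bar at the mean of the 2 libraries. HOXB-AS3 is lowest in wild-type (0.256 and 0 FPKM) and the fourth highest in knockout libraries, and HOXB4 shows the same level in both groups.

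HOXB-AS3, a long noncoding RNA from which a small peptide has been described in colon cancer cells, showed the widest gap between the groups. It was 0.256 FPKM in wild-type replicate 1 and listed at 0 in wild-type replicate 2, but 17.7 and 13.2 FPKM in the knockout libraries. It was nearly undetected in wild-type cells and, in knockout cells, stood between HOXB2 and HOXB3. The means were 0.128 ± 0.181 and 15.4 ± 3.19 FPKM (SD, n = 2), and the log2 difference of 6.35 ranked 4 among all 13246 genes. Because 1 library is at 0, this size depends on the pseudocount, being 3.86 with a pseudocount of 1 and 8.21 with 0.01, and it was 5.43 to 7.26 with each library left out in turn. It was positive on every scale tried.

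Set against the genes it overlaps, HOXB-AS3 was a trace in wild-type and a large part in knockout cells. Its FPKM was 0.00934 and 0 times that of HOXB6 in wild-type and 0.517 and 0.373 times in knockout libraries. It was 0.0191 and 0 times that of HOXB5 in wild-type and 2.03 and 1.50 times in knockout libraries. These ratios are taken within a library and do not depend on its total.

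Of the other antisense RNAs in the cluster, HOXB-AS1, which overlaps the HOXB2 and HOXB3 genes on the other strand and shares 58 exonic bases with HOXB-AS3, was lower in knockout libraries and the remaining 2 were near or under 1 FPKM. The limit on reads without strand holds for HOXB-AS1 too. HOXB-AS1 was 4.92 and 5.50 FPKM in wild-type against 2.76 and 2.57 FPKM in knockout libraries (log2 difference -0.94, SE 0.15, limma adjusted p = 0.00266), which is under 2-fold and therefore no call, and it was -0.28 after rescaling to TPM and -0.02 after correction for transcript length and GC content. It was called lower when centred on the median (-1.08) and without wild-type replicate 1 (-1.02). HOXB-AS2 was 0.0835 and 0.166 FPKM in wild-type against 0.464 and 0.614 FPKM in knockout libraries. HOXB-AS4 was 0.761 and 0.283 FPKM in wild-type against 1.48 and 1.32 FPKM in knockout libraries. Neither reached the filter, so neither was tested, and for both the knockout values lay above the wild-type values.

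Of the anterior genes, HOXB2 was lower and HOXB3 higher in knockout libraries. HOXB2, which patterns the hindbrain, was 27.5 and 31.5 FPKM in wild-type against 22.3 and 23.7 FPKM in knockout libraries (29.5 ± 2.81 and 23.0 ± 1.04, log2 difference -0.36). HOXB3, which acts in the hindbrain and in blood progenitors, was 6.47 and 5.11 FPKM in wild-type against 12.9 and 12.0 FPKM in knockout libraries. Both knockout values of HOXB3 were well above both wild-type values, with means of 5.79 ± 0.962 and 12.5 ± 0.628 FPKM, a 2.16-fold higher level and a log2 difference of 1.10. That difference was 0.94 to 1.27 with each library left out, so it lay on either side of 2-fold. HOXB1, at the end of the cluster next to HOXB2, was listed at 0 in all 4 libraries.

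The central genes HOXB4, HOXB5 and HOXB6 gave 3 different patterns. HOXB4, known for expanding blood stem cells in culture, had the lowest transcript level of HOXB2 to HOXB9 at 1.18 and 1.49 FPKM in wild-type against 1.27 and 1.38 FPKM in knockout libraries (1.33 ± 0.224 and 1.33 ± 0.0826), and its groups overlapped. HOXB5, which acts in neural crest and marks blood stem cells, was 13.4 and 13.1 FPKM in wild-type against 8.73 and 8.80 FPKM in knockout libraries (13.2 ± 0.218 and 8.77 ± 0.0506, log2 difference -0.59). Both knockout values of HOXB5 were below both wild-type values. HOXB6, expressed in trunk mesoderm and erythroid precursors, was 27.4 and 25.1 FPKM in wild-type against 34.2 and 35.3 FPKM in knockout libraries (26.2 ± 1.64 and 34.8 ± 0.807, log2 difference 0.41). HOXB6 also shares the most exonic bases with HOXB-AS3 and shares others with HOXB3. The part of these overlaps in its higher level was not tested.

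HOXB7 and HOXB8, neighbours beyond the end of HOXB-AS3, were lower in knockout libraries by similar amounts. HOXB7, which is overexpressed in several carcinomas, was the most abundant gene of the cluster in wild-type cells at 60.3 and 68.9 FPKM and was 28.9 and 29.4 FPKM in knockout libraries. The means were 64.6 ± 6.15 and 29.1 ± 0.358 FPKM, 2.22-fold higher in wild-type cells, with a log2 difference of -1.14. HOXB8, whose forced expression keeps myeloid progenitors dividing, was 11.3 and 10.1 FPKM in wild-type against 4.64 and 4.81 FPKM in knockout libraries. Its means were 10.7 ± 0.870 and 4.73 ± 0.119 FPKM, 2.27-fold higher in wild-type cells, with a log2 difference of -1.16. Neither gene's groups overlapped, and with each library left out the difference was -1.24 to -1.05 for HOXB7 and -1.24 to -1.08 for HOXB8. Neither shares an exonic base with HOXB-AS3.

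At the posterior end the difference was small. HOXB9, a factor in mammary gland development that is raised in many breast tumours, was 10.5 and 12.2 FPKM in wild-type against 8.61 and 9.93 FPKM in knockout libraries (11.4 ± 1.23 and 9.27 ± 0.931, log2 difference -0.29). Its groups did not overlap, but the lowest wild-type and highest knockout libraries lay closer to each other than the 2 libraries of either group. HOXB13, a prostate and tail bud factor that lies apart from the rest at chr17:48724763-48728750, was 3.98 and 3.80 FPKM in wild-type against 3.18 and 3.88 FPKM in knockout libraries (log2 difference -0.14, SE 0.16, limma adjusted p = 0.460).

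The size of these differences, and for some genes the direction, depended on the scaling. When each library was rescaled to the same total (TPM), the median difference over all genes moved by 0.67, from -0.09 to 0.59 on the log2 scale, and HOXB2, HOXB5 and HOXB9 turned from lower to higher (0.32, 0.09 and 0.38), while HOXB4, which had no difference on the deposited scale, came to 0.65. HOXB3 and HOXB6 then stood at 1.78 and 1.09, and HOXB7 and HOXB8 stayed negative at -0.47 and -0.49, both under 2-fold. In TPM, HOXB7 was 74.8 and 71.0 in wild-type and 53.8 and 51.7 in knockout libraries. Centred on each library's median gene, the differences were 6.20 for HOXB-AS3, 0.96 for HOXB3, 0.26 for HOXB6, -0.14 for HOXB4, -0.43 for HOXB9, -0.50 for HOXB2, -0.73 for HOXB5, -1.29 for HOXB7 and -1.30 for HOXB8. Across all genes the log2 difference rose with canonical transcript length (Spearman 0.495) and fell with GC content (Spearman -0.462), over 13112 genes that are not independent. After a correction for both, added after the data had been seen, HOXB3 was 1.39, HOXB6 1.29, HOXB7 -0.49 and HOXB8 -0.49, and HOXB2, HOXB4, HOXB5 and HOXB9 lay between 0.10 and 0.77. Thus HOXB-AS3, HOXB3 and HOXB6 were higher and HOXB7 and HOXB8 lower on each of these 4 scales, and the direction of HOXB2, HOXB4, HOXB5 and HOXB9 depended on the scale.

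**Figure D3:**
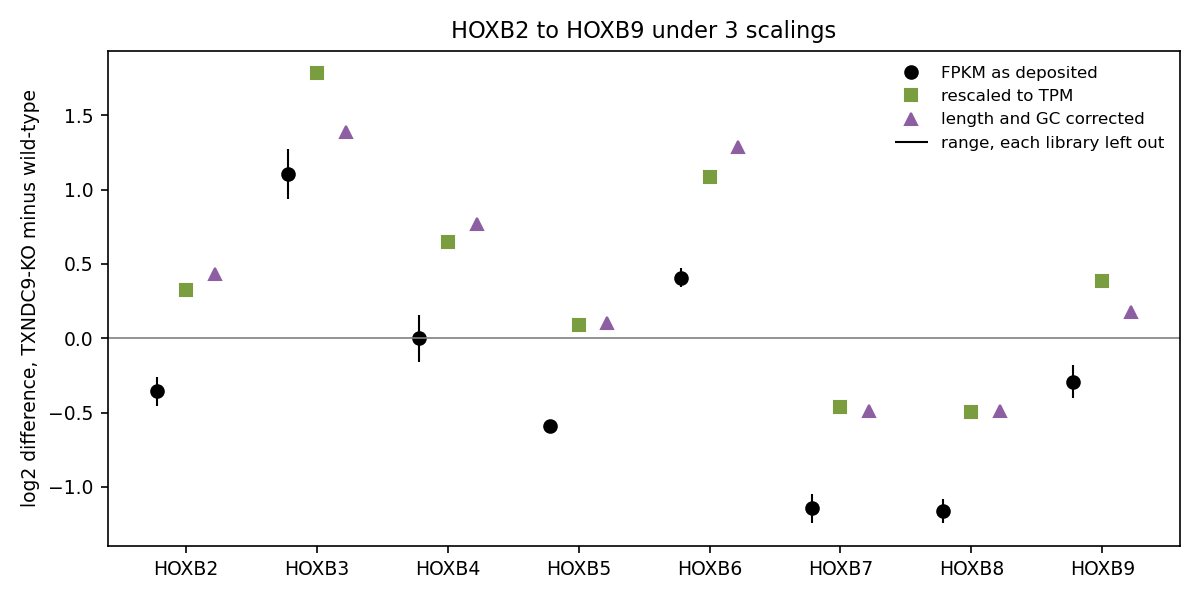
Difference in mean log2 value, TXNDC9-KO minus wild-type, of HOXB2 to HOXB9 on deposited FPKM (black, with the range over leaving out each library), after rescaling to TPM (green) and after correction for transcript length and GC content (purple). HOXB3 and HOXB6 lie above 0 and HOXB7 and HOXB8 below 0 on all 3 scales, and the other 4 change sides or leave 0.

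The make-up of HOXB expression within a library does not depend on its total. HOXB2 to HOXB9 summed to 158 and 168 FPKM in wild-type and to 122 and 125 FPKM in knockout libraries. HOXB7 made up 39.6 ± 2.14% of that sum in wild-type and 23.6 ± 0.237% in knockout libraries (SD, n = 2). The share of HOXB6 was 16.2 ± 1.68% in wild-type and 28.2 ± 0.0250% in knockout libraries, so HOXB6 took a larger and HOXB7 a smaller part. HOXB3 made up 3.57 ± 0.739% and 10.1 ± 0.735%, and HOXB8 6.60 ± 0.807% and 3.83 ± 0.0107%. The shares of HOXB2 (18.1 ± 0.978% and 18.6 ± 0.425%) and HOXB9 (6.98 ± 0.470% and 7.50 ± 0.586%) lay within the spread between replicates.

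The ratios between genes of a library restate these values. HOXB7 was 2.20 and 2.75 times the FPKM of HOXB6 in wild-type and 0.844 and 0.831 times in knockout libraries, so HOXB7 was the higher of the pair in wild-type and the lower in knockout cells. HOXB8 was 0.413 and 0.403 times HOXB6 in wild-type and 0.136 and 0.136 times in knockout libraries. HOXB8 was 1.75 and 1.98 times HOXB3 in wild-type and 0.359 and 0.400 times in knockout libraries. HOXB5 was 0.488 and 0.521 times HOXB6 in wild-type and 0.255 and 0.249 times in knockout libraries. None of these ratios overlapped between the groups. That was already fixed, because each pair sets a gene with lower knockout values against 1 with higher knockout values, neither overlapping.

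By FPKM, the order in wild-type cells was HOXB7, HOXB2, HOXB6, HOXB5, HOXB9, HOXB8, HOXB3, HOXB4 and HOXB-AS3. Of neighbours in that order only HOXB9 and HOXB8 overlapped between libraries. In knockout cells it was HOXB6, HOXB7, HOXB2, HOXB-AS3, HOXB3, HOXB9, HOXB5, HOXB8 and HOXB4, with only HOXB9 and HOXB5 overlapping. HOXB-AS3, HOXB3 and HOXB6 thus stood higher, and the other 6 genes lower, in the order of knockout cells.

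**Figure D4:**
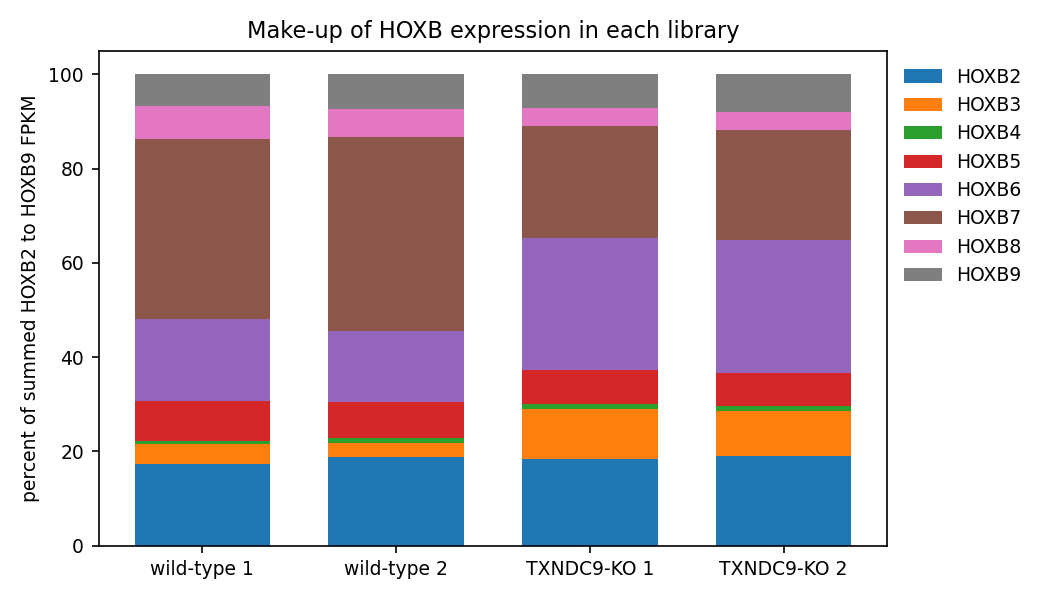
Share of each gene in the summed FPKM of HOXB2 to HOXB9, in percent, with 1 stacked bar per library. HOXB7 (brown) takes 38.1% and 41.2% in the wild-type libraries and 23.7% and 23.4% in the TXNDC9-KO libraries, while HOXB6 (purple) and HOXB3 (orange) take more in the latter.

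The 5 genes whose profile over the 4 libraries lay nearest to that of HOXB-AS3 (Euclidean distance of log2(FPKM + 0.1), each centred on the wild-type mean, among 13237 other genes) were RP11-242D8.3, RP11-815J21.2, RP11-70C1.3, RP11-707G14.1 and ZBED6. RP11-242D8.3 (distance 1.51) had 0 FPKM listed in either wild-type library, against 12.0 and 11.2 FPKM in the knockout libraries. ZBED6 (distance 1.75), a zinc finger repressor encoded within another gene, ZC3H11A, was 0.0608 and 0.0511 FPKM in wild-type against 6.91 and 6.92 FPKM in knockout libraries. A log2 difference of 5 or more was seen for 17 genes in all. The likeness is over 4 libraries and is a description only.

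The other HOX clusters were read from a limma fit over all 13246 genes, in which calls needed 2-fold or more and an adjusted p below 0.01. Of all genes 29.5% were called, 15.3% lower and 14.2% higher in knockout libraries. Without either knockout library no gene was called, whereas genes were called without either wild-type library. In these fits the lone library is taken to vary like the other group, so their calls rest on the spread within 1 group. The groups did not overlap for any of the 27 calls described below, so leaving out a library could not change their direction. At least 2-fold was kept by 26 without knockout replicate 1 and 27 without knockout replicate 2, and by 27 and 23 without wild-type replicate 1 and 2. Of 29 HOX genes of clusters A, C and D, 13 passed the filter, 2 fell and none rose, with a median of -0.64. In TPM the median was 0.03, none fell and HOXA13 rose. HOXC9 fell from 11.0 ± 3.44 to 4.75 ± 0.784 FPKM (log2 difference -1.17, SE 0.24, limma adjusted p = 0.00692). HOXD9 fell from 5.94 ± 1.07 to 2.74 ± 0.0888 FPKM (log2 difference -1.07, SE 0.17, limma adjusted p = 0.00281). Both calls were lost in TPM (-0.50 and -0.41), after the length and GC correction and with no filter. Without wild-type replicate 2 the differences were -0.85 and -0.89, under 2-fold. The call of HOXC9 was also lost with no trend, and that of HOXD9 with a pseudocount of 1. HOXC6 missed 2-fold at -0.92 (limma adjusted p = 0.00114) but was called lower when centred on the median (-1.06).

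By cluster, the median log2 difference was -0.11 for 6 HOXA genes, -0.76 for 5 HOXC genes and -0.94 for 2 HOXD genes, against -0.32 for HOXB2 to HOXB9. In TPM these medians were 0.56, -0.09, -0.30 and 0.35, and after the length and GC correction 0.20, -0.26, -0.24 and 0.31, so the direction of the HOXA and HOXB medians depended on the scale. HOXA10 (44.2 ± 1.58 and 42.5 ± 2.50 FPKM) and HOXC10 (57.8 ± 4.10 and 40.2 ± 3.01 FPKM) were named after their values were seen. They were the HOX genes of clusters A, C and D with a mean above 40 FPKM in both groups, which no HOXB gene had. With HOXA13 at 8.10 ± 0.00451 and 12.6 ± 0.821 FPKM, these libraries expressed posterior genes of other clusters as well as HOXB genes.

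**Figure D5:**
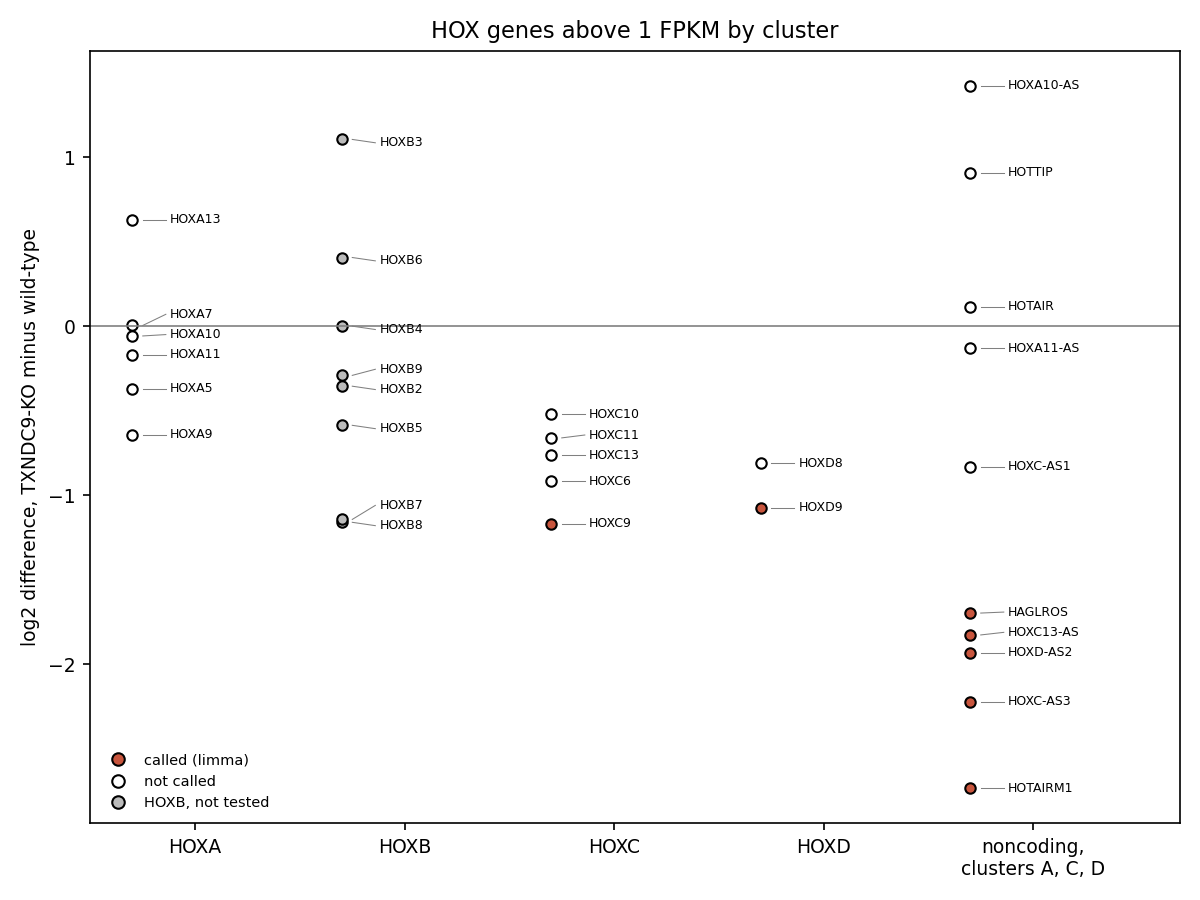
Difference in mean log2(FPKM + 0.1), TXNDC9-KO minus wild-type, of HOX genes above 1 FPKM in each cluster and of noncoding RNAs of clusters A, C and D. Red points were called by limma, white points were not and grey points are the HOXB genes, which were not tested. HOXB7 and HOXB8 lie beside HOXC9 (-1.17) and HOXD9 (-1.07), and HOTAIRM1 is the lowest point at -2.73.

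Of 10 noncoding RNAs of the other clusters above the filter, 5 fell and none rose (median -1.26). In TPM 4 fell and 2 rose (median -0.63), and after the length and GC correction 2 fell and 3 rose (median -0.28), so the balance depended on the scale. As with HOXB-AS3, reads of these RNAs and of genes they overlap cannot be told apart without strand. HOTAIRM1, an antisense RNA at the anterior end of HOXA studied in myeloid differentiation, was 23.3 and 39.7 FPKM in wild-type against 4.18 and 4.81 FPKM in knockout libraries (log2 difference -2.73, SE 0.25, limma adjusted p = 6.4e-04). HOXC-AS3 was 12.1 and 18.7 FPKM in wild-type against 3.14 and 3.15 FPKM in knockout libraries (log2 difference -2.22, SE 0.21, limma adjusted p = 6.7e-04). HOXD-AS2 (-1.93), HOXC13-AS (-1.83) and HAGLROS (-1.70) also fell, but these 3 calls were lost after the length and GC correction, and that of HOXD-AS2 also in TPM. HOXA10-AS at 1.42 (limma adjusted p = 0.0138) and HOTTIP, from the posterior end of HOXA, at 0.91 (limma adjusted p = 0.00442, under 2-fold) had positive differences with no call. Both rose in TPM (2.09 and 1.58) and after the length and GC correction (2.43 and 1.02), as HOXA11-AS did after the correction alone (1.02), and HOXA10-AS was also called with the replicate block and with no trend. HOTAIR, an RNA of HOXC that has been tied to Polycomb, was 5.09 ± 0.402 and 5.51 ± 0.301 FPKM (log2 difference 0.12). Against these, HOXB-AS3 was the HOX noncoding RNA with the largest positive difference, in an untested contrast that chose it.

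Of 9 TALE partners reported here that passed the filter, 1 fell and none rose. PBX4 fell from 1.76 ± 0.467 to 0.498 ± 0.0680 FPKM (log2 difference -1.62, SE 0.36, limma adjusted p = 0.00933). This call was lost in TPM, after the length and GC correction, with a pseudocount of 1, with no filter and without wild-type replicate 2. MEIS2 missed 2-fold at 0.98 (limma adjusted p = 0.00247), and MEIS1 was at 0.61 (limma adjusted p = 0.0369). In TPM none fell and these 2 rose, MEIS2 by 1.66 and MEIS1 by 1.28 on the log2 scale, and after the length and GC correction none was called.

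Retinoic acid induces the anterior HOXB genes in the embryo, and of 9 genes of its pathway above the filter 2 rose and 2 fell. ALDH1A3, which makes retinoic acid, rose from 6.52 ± 0.0445 to 16.8 ± 0.439 FPKM (log2 difference 1.35, SE 0.10, limma adjusted p = 5.4e-04), and CYP26B1, which breaks it down, rose from 0.413 ± 0.112 to 2.21 ± 0.128 FPKM (log2 difference 2.19). CRABP2, which carries retinoic acid to the nucleus, fell from 4.64 ± 1.69 to 0.882 ± 0.451 FPKM (log2 difference -2.31), and the receptor RARA fell from 17.5 ± 1.37 to 8.17 ± 0.652 FPKM (log2 difference -1.09). The calls of CRABP2 and RARA were lost after the length and GC correction, that of RARA also in TPM and that of CRABP2 without wild-type replicate 2. In TPM 3 genes rose, RXRB being added, and 1 fell.

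Of 30 Polycomb genes, all above the filter, 2 rose and 3 fell. The PRC1 subunits PHC3 (2.27 ± 0.00197 to 9.62 ± 0.643 FPKM, log2 difference 2.03) and PHC1 (1.09 ± 0.242 to 4.06 ± 0.315 FPKM, log2 difference 1.82) rose, and PCGF1 (-1.44), PCGF2 (-1.17) and the PRC2 partner PHF19 (-1.02) fell. In TPM 11 rose and none fell, PCGF1, PCGF2 and PHF19 then being at -0.77, -0.49 and -0.34. After the length and GC correction only PHC1 of these 5 kept its call, and PCGF5 was called lower. The methyltransferase EZH2 was 28.0 ± 0.735 and 28.7 ± 2.75 FPKM (log2 difference 0.04), and its partner SUZ12 stood just under 2-fold at 0.97 (limma adjusted p = 7.5e-04).

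Of 14 trithorax and H3K27 demethylase genes 4 rose and 1 fell. KDM6A, which removes methyl groups from H3K27, rose from 1.47 ± 0.0800 to 10.6 ± 1.77 FPKM (log2 difference 2.75, SE 0.17, limma adjusted p = 5.0e-04). The methyltransferases ASH1L (2.30), KMT2C (1.90) and KMT2A (1.78) also rose, whereas KMT2B fell from 20.1 ± 0.362 to 6.05 ± 0.340 FPKM (log2 difference -1.72, SE 0.10, limma adjusted p = 5.0e-04). These 5 calls were kept in TPM, where 6 genes of the list rose in all, and after the length and GC correction. Of 10 CTCF and cohesin genes, which shape chromatin loops at HOX clusters, the cohesin subunits SMC1A (1.84), STAG2 (1.62) and RAD21 (1.30) rose and none fell. In TPM 7 rose, and after the length and GC correction STAG2 lost its call and the cohesin loader NIPBL was called lower (-1.46). CTCF was 18.7 ± 1.23 and 19.5 ± 1.68 FPKM (log2 difference 0.06). Over all these lists 11 of 95 genes rose and 14 fell, 26.3% in all, near the 29.5% of all genes.

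Genes on either side of the cluster were mostly not called, as was so for all genes, of which 29.5% were called. Of 26 listed, 17 passed the filter, none rose and 2 fell (11.8% called). SNF8, an ESCRT subunit 200.6 kb beyond the cluster, fell from 221 ± 40.3 to 82.6 ± 6.24 FPKM (log2 difference -1.41, SE 0.16, limma adjusted p = 9.7e-04), and CDK5RAP3, 546.7 kb away on the other side, fell from 105 ± 22.2 to 45.9 ± 5.29 FPKM (log2 difference -1.18). Both calls were lost in TPM, where none fell and 4 rose, and centred on the median 3 fell. ATP5G1, a subunit of ATP synthase, missed 2-fold at -0.91. The median over the 17 neighbours past the filter was 0.05, and their largest positive difference was 0.71. TTLL6, a neighbour under the filter and named after its values were seen, was 0.0831 and 0.0722 FPKM in wild-type against 0.368 and 0.517 FPKM in knockout libraries.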

How the data were processed

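RNA had been made into libraries from poly(A) RNA and sequenced on an Illumina instrument. Per the labels and the methods of the study, the authors mapped reads to hg38 with TopHat2 against an Ensembl annotation, without new junctions, and used Cuffdiff to obtain the FPKM of each gene in each library, which they deposited. Neither tool's version, nor Cuffdiff's settings for library size and strand, is given in the sources used here. The deposited table also holds the mean FPKM of each group and 3 columns of the authors' own comparison (a log2 fold change, a p-value and a q-value), which were not used. Its 57979 lines with values carried identifiers out of register with the symbols. The identifiers were put back in order, after which those of all 9 members had the same symbol in GENCODE release 44. Over the whole table, 56935 identifiers were found in that release, and 34949 of them had a current or older symbol equal to that on the line. The rest were not traced. The symbol MIR10A stood with an identifier that GENCODE gives to another RNA, so no value is given for it.

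No step of 1 read was found in the low values (in any pair of libraries, at most 4.53% of genes under a mean of 0.03 FPKM shared a log2 ratio rounded to 2 decimals), so the depth is taken as unknown and no counting intervals are given. Genes with a mean above 1 FPKM were compared on log2(FPKM + 0.1), a scale that understates the change of low genes, with limma 3.58.1 in R 4.3.3 (trend in the prior variance, Benjamini-Hochberg adjustment over 13246 genes, no replicate block). The script was tested on simulated data with 200 changed genes. Those data gave every gene the same spread, smaller than the mean spread here, and changes of a fixed size. The simulation therefore checks the code and says nothing of how many calls in these libraries are right. With 2 libraries against 2, an exact permutation test cannot give a p below 0.333, so none was run for single genes.

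The members and gene lists were chosen with earlier results of these data known, and some list genes are not reported here. The genes named were the 9 members, TXNDC9, the 3 of each list with the largest difference and every list gene in a count of 5 or fewer, and the 5 genes nearest to HOXB-AS3; EZH2, SUZ12, CTCF, HOTAIR, HOXA10, HOXC10, HOXA13, HOXA11-AS, RXRB, PCGF5, NIPBL and TTLL6 were added after their values were seen. The alternatives tried were pseudocounts of 1 and 0.01, dropping the filter or raising it to a mean above 5 FPKM, rescaling to TPM, centring on the median, an adjusted p under 0.05, no trend, the replicate block, leaving out each library and, added after seeing the data, a loess correction (span 0.3) of each library for canonical transcript length and GC content. Python 3.11.15, pandas 2.3.3, numpy 2.4.6 and matplotlib 3.10.9 were used.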

Additional observations from a re-analysis of the deposited data

How the results depend on the processing

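Rescaling to TPM moved the median difference of the 9 genes from -0.29 to 0.38, left 0 of them 2-fold lower, and put 6 above and 2 below wild-type without overlap. It also gave 447 lower and 4380 higher calls over all genes, 6 lower and 32 higher over the HOX, cofactor and chromatin lists, and 0 lower and 4 higher among the neighbours, so that 90.7% of calls were higher instead of 48.3%. Centring on the median gave a median of -0.43 for the 9 genes and 1 gene 2-fold higher, HOXB-AS3, as did a pseudocount of 1. The length and GC correction, chosen after seeing the data, gave a median of 0.44, 0 genes 2-fold lower, 6 above and 2 below without overlap, 678 lower and 1137 higher calls, 5 lower list calls and 1 lower neighbour. With no filter 8 list genes and 1 neighbour fell, and with a mean above 5 FPKM 9 list genes fell and 1220 genes rose. Under the alternatives here and below, the shares of all genes past 2-fold or without overlap were not taken. Nothing is therefore read from these counts of the 9 genes.

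Leaving out each library gave medians of -0.40 to -0.18 for the 9 genes, with 1 to 2 of them 2-fold higher (1, HOXB-AS3, without wild-type replicate 2). Over all genes there were 0 to 2633 lower and 0 to 2136 higher calls, over the lists 0 to 15 lower and 0 to 15 higher, and among the neighbours 0 to 4 lower. The counts of 0 came without TXNDC9-KO replicate 1 or 2, where the smallest limma adjusted p was 0.0160 or 0.0232. At an adjusted p under 0.05, 3747 and 3943 genes were called there.

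The replicate block gave 2146 lower and 1960 higher calls over all genes, 14 and 12 over the lists and 2 and 0 among the neighbours. Deviations of same-numbered libraries correlated at -0.09, over genes that are not independent. With 1 deviation per group, this cannot show whether the numbers mark a pairing. With the block, the length and GC correction gave a median of 0.44 for the 9 genes, 0 of them 2-fold lower, 678 lower and 1047 higher calls, 5 lower list calls and 1 lower neighbour.

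HOXB-AS3, HOXB3 and HOXB6 kept a positive and HOXB7 and HOXB8 a negative difference under every alternative run. Groups of 2 libraries allow no test for an outlying library, and the depth is unknown, so the error of the level of HOXB-AS3 in wild-type cells is not known.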
